A study of Homo sapiens with 9 samples.

Results

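Zinc finger genes of the ZNF series make up most of the largest family of human DNA-binding proteins, and 238 of them were expressed well enough in HNT34 cells to be followed here one by one. HNT34 is a human acute myeloid leukemia (AML) cell line with a chromosome 3 rearrangement that drives high levels of the transcription factor EVI1, the product of MECOM. The 238 genes were chosen by their symbol (ZNF followed by a number and at most 1 letter) and selected on their measured level, a mean raw count of at least 500 over the 9 libraries. They were 238 of 432 ZNF rows and of 16612 genes in the count table. ZNF420 (mean count 500.2) and ZNF514 (501.3) stood just inside this limit, and ZNF23 and ZNF707 (490.9 each) just outside it. All 238 passed the filter on low counts, as did 192 of the 194 ZNF rows with lower means.

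Most ZNF proteins carry a row of C2H2 zinc fingers, each of which contacts a few bases of DNA. Many also carry a KRAB domain, which binds the corepressor TRIM28 (KAP1). TRIM28 in turn brings the histone methyltransferase SETDB1, HP1 proteins and the NuRD complex, so that the bound stretch, often a retroelement, is packed into heterochromatin. Others lack KRAB and act as activators, as partners of chromatin complexes or, in some cases, on RNA and ribosomes. KRAB-ZNF genes lie in clusters, above all on chromosome 19, that grew by repeated gene duplication.

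RNA was sequenced in 3 groups of 3 libraries, all from cells that carried a lentiviral hairpin vector and had been selected with puromycin, collected 3 days after selection. NT cells carried a non-targeting hairpin, and the other groups carried 1 of 2 hairpins against EVI1, called sh#16 and sh#87. The shRNA field of the sh#87 libraries reads 18 in the labels, and they were grouped by their titles. All libraries came from 1 cell line, and nothing in the labels says that replicates were separate cultures, so the p-values measure only the spread between these libraries, which may be technical.

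The targeted gene followed the labels. MECOM stood at 571, 504 and 440 CPM (counts relative to the TMM-scaled library size) in NT, at 145, 143 and 145 CPM in sh#16 and at 109, 107 and 106 CPM in sh#87 libraries. These are 28.6% and 21.3% of the NT mean, and no knockdown library overlapped NT (exact permutation test, two-sided p = 0.0119, the smallest that 6 against 3 libraries allow).

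Total depth was between 17096170 and 43502389 counts per library. The myeloid markers PTPRC, CD33, CD34, KIT, ANPEP and SPI1 were detected in every library, and 4 of these 6 fell. Mean levels in NT, sh#16 and sh#87 libraries were 731, 116 and 42.4 CPM (TMM-scaled) for CD34, a surface protein of blood progenitors (log2 fold change -3.20), and 855, 142 and 99.99 CPM for PTPRC, which encodes the pan-leukocyte protein CD45 (-2.82). They were 75.7, 18.7 and 9.85 CPM for SPI1, which encodes the myeloid factor PU.1 (-2.40), and 85.9, 34.3 and 27.7 CPM for the receptor gene KIT (-1.47). CD33 (42.7, 38.0 and 35.1 CPM) and ANPEP (270, 284 and 139 CPM) were not called, although both were called lower with sh#87 on its own (-0.28 and -0.96). Of the markers of other cells, CD3E and KRT18 were detected in every library, and COL1A1 had 1 to 4 counts in NT and 481 to 1200 in knockdown libraries. HBG1, EPCAM and COL1A2 had no entry among the counted genes and so were not analysed here. The part of these markers in the results below was not tested. Mitochondrially encoded genes took 15.9%, 11.5% and 4.69% of counts in NT replicates 1, 2 and 3, and between 2.69% and 5.97% in knockdown libraries. The NT libraries also differed more among themselves, with a biological coefficient of variation of 24.95% over all genes and 16.6% over the 238 ZNF genes, against 2.65% (sh#16) and 4.28% (sh#87) for the ZNF genes in knockdown libraries.

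The first question was how the ZNF genes moved when EVI1 was depleted by either hairpin. More of them fell than rose. Of 238 genes, 123 (51.7%) were lower and 31 (13.03%) were higher in the 6 knockdown libraries at an adjusted p of at most 0.01 (edgeR quasi-likelihood test, Benjamini-Hochberg over all 16312 genes tested), and 84 were not called. Over all genes tested, 29.7% were lower and 30.1% were higher. The median log2 fold change was -0.39 over the ZNF genes and 0.05 over all genes, and 72.3% of ZNF genes lay below 0, against 48.3% of all genes. Among the 192 ZNF genes with lower counts, 38.5% were lower, 19.3% were higher and the median log2 fold change was -0.31. In 131 ZNF genes (55.0%) every knockdown library was below every NT library, and in 40 (16.8%) every one was above, against 32.1% and 33.9% of all genes.

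The falls were mostly moderate. A fall of at least 1 on the log2 scale was seen in 51 of the ZNF genes (21.4%) and a rise of that size in 5 (2.10%), against 17.1% and 21.0% of all genes. At a log2 change of at least 2 the ZNF genes counted 10 lower (4.20%) and 0 higher, against 5.66% and 9.74% of all genes. The greatest log2 rise among the ZNF genes was 1.71, so the 0 holds at any p. Since the count limit was set on the mean of all 9 libraries, a gene could pass it through the group where it is high. In 29 of the 238 genes the mean raw count reached the limit in NT but not in knockdown libraries, and of these 27 were lower, among them 8 of the 10 that fell by at least 2. In 12 it reached the limit in knockdown libraries but not in NT, and of these 7 were higher. The counts of ZNF genes against all genes are descriptions for that reason. The 5 genes that at least doubled were ZNF324, ZNF778, ZNF598, ZNF526 and ZNF48.

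**Figure D1:**
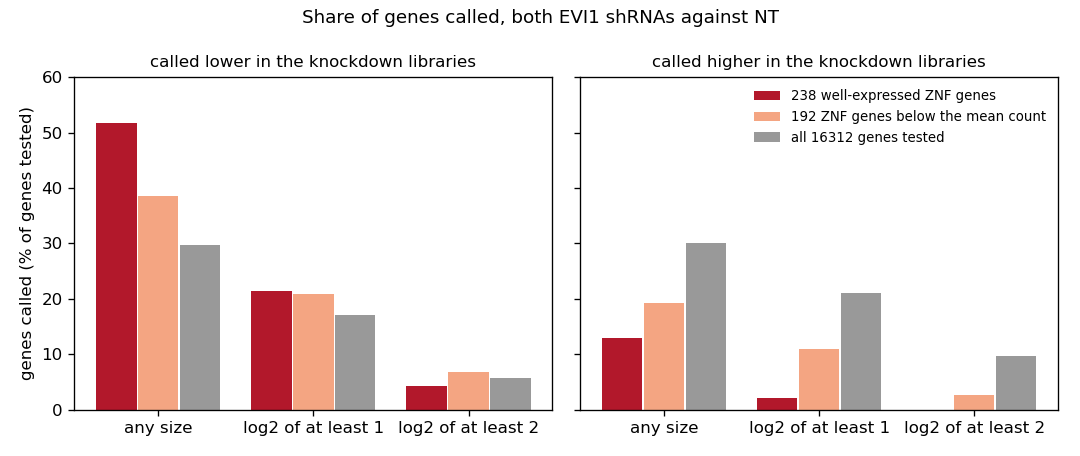
Share of genes called lower (left) and higher (right) in the 6 knockdown libraries against 3 NT libraries, in percent of genes tested (adjusted p limit 0.01), at 3 sizes of change. Red bars are the 238 well-expressed ZNF genes, light bars the 192 ZNF genes below the count limit and grey bars all 16312 genes; on the left the red bar is the tallest when any size counts (51.7%) and at a log2 change of 1 (21.4%) but the shortest at a log2 change of 2 (4.20%), and on the right it is the shortest at each size (13.03%, 2.10% and 0).

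Summed over the 238 genes, the ZNF transcripts took between 1.38% and 1.40% of all counts in NT and between 1.15% and 1.22% in knockdown libraries. On the TMM scale the sums were 17205, 16130 and 14602 CPM in NT replicates 1, 2 and 3, and lay between 10869 and 11323 CPM in the 6 knockdown libraries. The groups did not overlap on either scale. The NT sums stood in the order of the mitochondrial shares on the TMM scale, but not as shares of all counts, where NT replicate 3 was highest (1.40%). Among the 123 ZNF genes that fell, 94 (76.4%) had their highest NT level in replicate 1, the library with the highest mitochondrial share, against 60.4% of all genes that fell and 39.5% of all genes tested. The part of this difference between NT libraries in the result was not tested beyond the following values. Without the mitochondrially encoded genes 123 ZNF genes were lower and 30 higher, against 29.8% and 30.1% of all genes. With NT replicate 3 as the only NT library, an alternative chosen after seeing the data, 83 (34.9%) were lower and 8 (3.36%) higher, against 19.1% and 15.2% of all genes. The lone NT library is assumed there to vary like the knockdown groups. Leaving out NT replicate 2 alone gave 110 lower (46.2%) and 15 higher (6.30%), against 24.9% and 23.0%.

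How far the count tilts to lower genes also depended on scaling. TMM factors were between 0.804 and 0.959 in NT and between 1.06 and 1.09 in knockdown libraries. Scaling by total counts, an alternative also chosen after seeing the data, moved the median change of all genes (log2) from 0.05 to 0.34 and that of the ZNF genes from -0.39 to -0.09, and gave 90 ZNF genes lower and 51 higher (63.8% of calls lower, against 79.9% with TMM), while 20.9% of all genes were lower and 38.3% higher. The gap between both medians was -0.44 under either scaling. A change of scaling shifts all genes by nearly the same amount, so it cannot test this gap. The ZNF transcripts were longer and poorer in GC than others, with medians of 4560 bases and 42.4% GC over 237 genes, against 2940 bases and 48.6% over 13854 genes tested. After a correction for length and GC the gap was -0.26, with 117 ZNF genes lower and 41 higher (of all genes, 34.8% and 29.6%).

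Each hairpin was then compared with NT on its own. With sh#16, 133 ZNF genes (55.9%) were lower and 25 (10.5%) higher, against 30.2% and 29.8% of all genes, and 46 (19.3%) and 4 (1.68%) passed a log2 change of 1, against 15.5% and 18.5%. With sh#87, 135 (56.7%) were lower and 42 (17.6%) higher, against 33.6% and 34.3% of all genes, and 66 (27.7%) and 7 (2.94%) passed a log2 change of 1, against 19.9% and 23.9%. Median log2 fold changes of the ZNF genes were -0.39 with sh#16 and -0.42 with sh#87. The 2 comparisons share their NT libraries.

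The genes described one by one were ranked among ZNF genes called with each hairpin and with knockdown and NT libraries apart. Of the 10 that fell most, ZNF827 led. It encodes a protein that recruits the NuRD complex to telomeres. ZNF827 stood at 112, 112 and 98.2 CPM in NT, at 18.1, 17.4 and 16.6 CPM in sh#16 and at 17.3, 17.9 and 16.3 CPM in sh#87 libraries. Both hairpins gave nearly the same level, far below NT (log2 fold change -2.64 ± 0.08 (SE, n = 6 against 3), adjusted p = 1.13e-08 in edgeR).

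ZNF710 and ZNF362 also lack a KRAB domain. ZNF710 stood at 43.4, 55.9 and 64.2 CPM in NT, at 9.95, 11.3 and 10.7 CPM in sh#16 and at 8.36, 8.18 and 9.46 CPM in sh#87 libraries (log2 fold change -2.50 ± 0.14, adjusted p = 2.73e-07 in edgeR). ZNF362, a paralog of the leukemia fusion partner ZNF384, stood at 64.1, 75.4 and 71.1 CPM in NT, at 15.7, 16.6 and 13.6 CPM in sh#16 and at 9.94, 9.43 and 10.2 CPM in sh#87 libraries (log2 fold change -2.47 ± 0.19). Both sets of knockdown libraries were apart from NT and from each other. The difference between hairpins was called for ZNF362 (-0.64) but not for ZNF710 (-0.30, adjusted p = 0.142 in edgeR). In ZNF710 and ZNF362 NT replicate 1 was the lowest NT library, and in the other 8 genes NT replicate 3 was. For the canonical transcript of ZNF362, 37.4% of 100-base stretches also occur in transcripts of an overlapping gene model, so reads may have been split between them.

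The other 7 carry KRAB. ZNF33A and ZNF33B are a pair of close copies on either side of the centromere of chromosome 10. ZNF33A stood at 191, 161.6 and 111 CPM in NT, at 35.9, 36.1 and 38.7 CPM in sh#16 and at 26.3, 23.1 and 25.8 CPM in sh#87 libraries (log2 fold change -2.32 ± 0.20). ZNF33B stood at 121, 101 and 81.8 CPM in NT, at 21.1, 22.4 and 21.6 CPM in sh#16 and at 14.7, 13.6 and 13.1 CPM in sh#87 libraries (log2 fold change -2.51 ± 0.20). In both copies the sh#87 libraries were the lowest and the NT libraries the highest, with no overlap. The difference between hairpins was called in ZNF33B only. Under 1% of 100-base stretches were shared with another gene's transcript (0.914% and 0.935%). ZNF605 on chromosome 12 stood between 66.1 and 113 CPM in NT and between 13.3 and 18.0 CPM in the 6 knockdown libraries (log2 fold change -2.50 ± 0.16).

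The remaining 4 (ZNF253, ZNF93, ZNF708 and ZNF675) lie in the ZNF clusters of chromosome 19 next to the centromere. ZNF253 stood at 98.5, 87.0 and 62.5 CPM in NT, at 18.3, 18.0 and 18.5 CPM in sh#16 and at 11.6, 10.1 and 9.71 CPM in sh#87 libraries (log2 fold change -2.52 ± 0.24). Its neighbor ZNF93, which represses young LINE-1 elements, stood at 135, 112 and 78.2 CPM in NT, at 24.9, 27.8 and 28.5 CPM in sh#16 and at 18.0, 14.1 and 15.3 CPM in sh#87 libraries (log2 fold change -2.34 ± 0.25). Both were lowest with sh#87, and NT replicate 3 was the lowest NT library of each. For ZNF93 the difference between hairpins was not called (-0.78, adjusted p = 0.0128 in edgeR). ZNF708 fell by 2.25 ± 0.21 and ZNF675, an inhibitor of TRAF6 signaling, by 2.07 ± 0.23 on the log2 scale, each with no overlap between groups. All 10 kept their direction and their call (adjusted p of at most 0.01) in each of 23 alternative analyses. None of these alternatives changed the choice of genes, and 8 of the 10 reached the count limit in NT but not in knockdown libraries.

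Of the 10 that rose most by the same ranking, ZNF324 led, a KRAB gene near the end of the long arm of chromosome 19. ZNF324 stood at 10.6, 16.9 and 18.98 CPM in NT, at 39.9, 41.0 and 38.7 CPM in sh#16 and at 59.96, 63.2 and 62.1 CPM in sh#87 libraries (log2 fold change 1.71 ± 0.25 (SE, n = 6 against 3), adjusted p = 0.00013 in edgeR). The 3 groups were apart, with sh#87 highest, but the difference between hairpins was not called. ZNF778 on chromosome 16, also with KRAB, stood at 20.5, 21.3 and 19.4 CPM in NT, at 53.2, 49.5 and 49.5 CPM in sh#16 and at 62.6, 60.9 and 64.1 CPM in sh#87 libraries (log2 fold change 1.47 ± 0.12). Its NT libraries were close together.

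ZNF598, the ubiquitin ligase that marks collided ribosomes, stood at 21.9, 31.1 and 46.0 CPM in NT, at 74.8, 79.0 and 75.8 CPM in sh#16 and at 107, 105 and 97.7 CPM in sh#87 libraries (log2 fold change 1.44 ± 0.23). Here NT replicate 1 was the lowest and replicate 3 the highest NT library, and the groups did not overlap. The difference between hairpins was not called (0.43, adjusted p = 0.144 in edgeR). ZNF526 (1.27 ± 0.14) and ZNF48 (1.04 ± 0.17) showed the same order of NT libraries. The KRAB genes ZNF558, ZNF559, ZNF789, ZNF213 and ZNF584 rose by between 0.67 (ZNF584) and 0.89 (ZNF558) on the log2 scale, each with knockdown and NT libraries apart. Larger fitted rises than some of these were left out by the ranking, among them ZNF687 (0.81), which was not called with sh#16 (adjusted p = 0.0141 in edgeR). With NT replicate 3 as the only NT library, where the spread comes from the knockdown libraries alone, all 10 kept their direction and 8 were not called, with log2 fold changes between 0.45 (ZNF584) and 1.43 (ZNF324). ZNF789 was also not called without NT replicate 2 (0.65), without NT replicate 3 (0.67) or with limma-voom weighted per group (0.54). The sign of ZNF213 turned (-0.34) after the correction for length and GC, which leaves its direction uncertain.

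**Figure D2:**
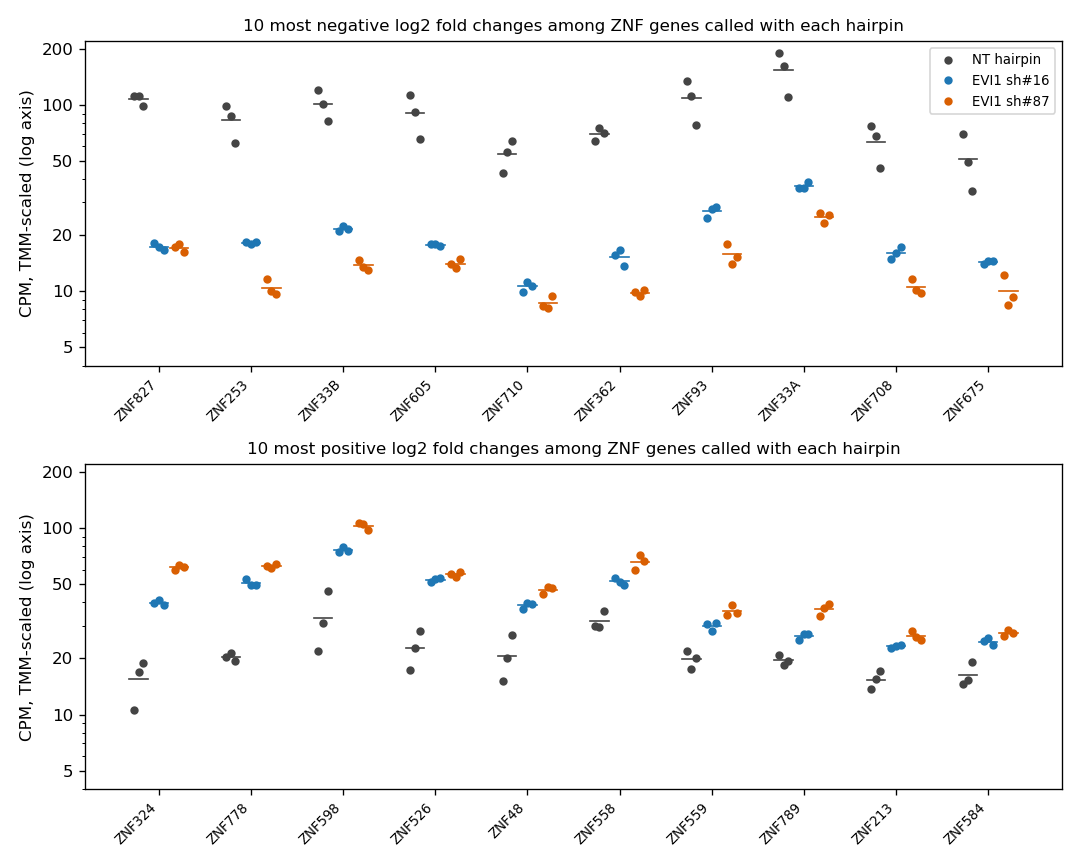
Level of the 10 ZNF genes with the most negative (top) and the 10 with the most positive (bottom) log2 fold change among those called with each hairpin and with knockdown and NT libraries apart, in TMM-scaled CPM on a log axis. Each point is 1 library and each bar the mean of 3 (grey NT, blue sh#16, orange sh#87); in every gene shown the grey points stand apart from the blue and orange ones, and for ZNF827 sh#16 and sh#87 points lie at the same height (16.3 to 18.1 CPM).

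To see what the start sites of these genes share, 300-base promoters (250 bases before to 50 after the start, RefSeq, GRCh38.p14) were read for the 200 ZNF genes that had one. The 5 shown are those of the 3 genes that fell most and the 2 that rose most among genes with an entry. Capitals mark every match, on either strand, to 4 words: CCGGAAG (the core bound by ETS factors), AGATAA (the GATA core found in sites of the first zinc finger domain of EVI1), CACGTG (the E-box, the same on both strands) and CTACAATT (part of the ZNF143 site). No word contains another.
ZNF33B, chr10:42638521-42638820, minus strand: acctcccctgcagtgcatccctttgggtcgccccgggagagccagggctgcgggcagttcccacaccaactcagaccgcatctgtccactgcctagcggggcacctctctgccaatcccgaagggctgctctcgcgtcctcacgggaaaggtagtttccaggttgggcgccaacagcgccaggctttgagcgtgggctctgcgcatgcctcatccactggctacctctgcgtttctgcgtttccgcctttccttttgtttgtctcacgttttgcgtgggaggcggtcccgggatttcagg
ZNF605, chr12:132956257-132956556, minus strand: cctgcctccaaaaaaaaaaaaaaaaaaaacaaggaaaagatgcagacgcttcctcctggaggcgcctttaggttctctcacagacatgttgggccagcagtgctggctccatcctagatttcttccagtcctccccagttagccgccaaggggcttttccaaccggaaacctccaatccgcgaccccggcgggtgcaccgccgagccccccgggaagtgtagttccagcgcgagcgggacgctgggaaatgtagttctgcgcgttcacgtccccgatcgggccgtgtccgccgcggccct
ZNF362, chr1:33256242-33256541, plus strand: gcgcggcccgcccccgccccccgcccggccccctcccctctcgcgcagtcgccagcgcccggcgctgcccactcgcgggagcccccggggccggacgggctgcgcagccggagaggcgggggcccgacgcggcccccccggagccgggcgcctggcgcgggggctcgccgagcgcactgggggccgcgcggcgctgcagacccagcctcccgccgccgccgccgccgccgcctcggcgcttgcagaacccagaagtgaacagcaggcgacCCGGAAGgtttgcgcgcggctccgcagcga
ZNF324, chr19:58466830-58467129, plus strand: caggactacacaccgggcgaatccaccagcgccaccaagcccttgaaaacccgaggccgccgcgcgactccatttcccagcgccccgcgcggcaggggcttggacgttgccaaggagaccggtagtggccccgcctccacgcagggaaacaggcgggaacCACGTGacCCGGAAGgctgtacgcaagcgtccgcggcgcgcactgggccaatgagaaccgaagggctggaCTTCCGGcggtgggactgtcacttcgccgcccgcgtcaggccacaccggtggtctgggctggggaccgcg
ZNF778, chr16:89217453-89217752, plus strand: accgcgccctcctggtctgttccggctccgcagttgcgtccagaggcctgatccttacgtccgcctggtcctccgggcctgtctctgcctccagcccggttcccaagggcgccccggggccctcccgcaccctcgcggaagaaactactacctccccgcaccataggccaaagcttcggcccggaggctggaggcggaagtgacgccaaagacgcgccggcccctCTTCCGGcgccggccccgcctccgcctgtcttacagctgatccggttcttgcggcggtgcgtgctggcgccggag

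The ETS word occurred in the promoters of ZNF362, ZNF324 and ZNF778, on both strands in ZNF324, and ZNF324 also held an E-box. The promoters of ZNF33B and ZNF605, whose transcripts fell by over 2 on the log2 scale, held none of the 4 words. The ZNF362 window lies inside the annotated gene and not at its outer end. Across the family, 92 of 200 ZNF promoters (46.0%) held CCGGAAG, against 10.7% of all 27305 promoters. It was found in 49 of 105 promoters of genes that fell (46.7%), in 16 of 26 of genes that rose (61.5%) and in 27 of 69 of genes not called (39.1%), so that both directions held it. AGATAA was found in 3.5% of ZNF promoters and in 10.5% of all promoters, CACGTG in 5.5% and 7.43%, and CTACAATT in 2.5% and 0.721%. The median number of CpG pairs per window was 21 in genes that fell and 26 in genes that rose, against 14 over all promoters. These are matches of letters and were not tested as binding sites.

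The family was then divided by its proteins. For the classes by protein or position, the shares to compare are 51.7% lower and 13.03% higher among all 238 ZNF genes. Over all genes tested they are 29.7% and 30.1%. A KRAB domain was found in the coding transcripts of 154 of the 238 genes, was not found in 78, and 6 had no coding transcript. Of the KRAB genes 84 fell and 19 rose, with a median log2 fold change of -0.48. Of the genes without KRAB 36 fell and 12 rose, with a median of -0.30. Both classes thus tilted to lower levels. By the number of C2H2 fingers, 13 of 30 genes with 0 to 4 fingers fell (median -0.26), 31 of 63 with 5 to 9 (-0.34), 41 of 81 with 10 to 14 (-0.42) and 35 of 58 with 15 or more (-0.58). In the last class 4 genes rose. These medians are descriptions, since finger number, KRAB, transcript length and position go together in this family. Fingers were counted in a single transcript of each gene, so a gene with a short protein there can be counted low. ZNF274, with 209 residues, counted 0 fingers.

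By position, 61 of 109 genes on chromosome 19 fell and 14 rose (median -0.47), against 62 and 17 of 129 on other chromosomes (median -0.33). Runs of ZNF genes on chromosome 19 were set apart where the gap between neighbors exceeded 500 kb. The 3 runs next to the centromere (chr19:19668153-24129968, GRCh38.p14) were singled out after their values were seen. They held 17 of the 238 genes, of which 14 fell, 10 of them by at least 1 on the log2 scale, and 0 rose (median -1.14, range -2.52 to 0.29). ZNF101, ZNF14, ZNF66 and ZNF43 are named here outside the ranking, with their values known. The 3 not called were ZNF101, ZNF14 and ZNF66, the last of which had the only value above 0 (adjusted p = 0.282 in edgeR). ZNF101 (-0.32) and ZNF14 (-0.70) were called lower with sh#87 on its own. Among those that fell were ZNF253, ZNF93, ZNF708 and ZNF675, described above, ZNF43 (-1.86) and ZNF91 (-1.14), the repressor of SVA retroelements. ZNF91 stood at 152, 125 and 91.4 CPM in NT, at 58.5, 58.2 and 56.6 CPM in sh#16 and at 57.7, 50.6 and 54.2 CPM in sh#87 libraries. Its knockdown libraries were close together and below each NT library. Further along, the run at chr19:51571283-53580269 held 22 of the genes, with 14 lower and 2 higher (median -0.83), and the run at the end of the long arm (chr19:57191500-58489533) held 22, with 11 lower and 2 higher (median -0.31).

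**Figure D3:**
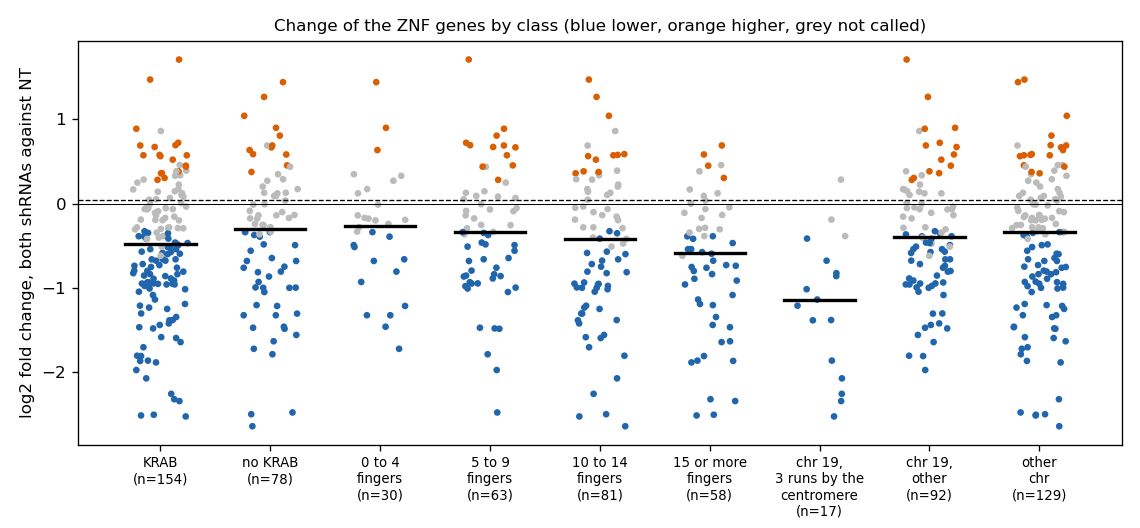
Log2 fold change of each ZNF gene (both shRNAs against NT) by KRAB domain, number of C2H2 fingers and position. Each point is 1 gene (blue lower, orange higher, grey not called at an adjusted p of at most 0.01), bars are class medians and the dashed line is the median of all genes (0.05); the 17 genes of the 3 runs next to the chromosome 19 centromere have the lowest median (-1.14) of the classes drawn, and each class median lies below the dashed line.

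Proteins whose roles are known were grouped in lists. For the lists too, the shares to compare are 51.7% lower and 13.03% higher among all 238 ZNF genes. Over all genes tested they are 29.7% and 30.1%. The lists are small and were not tested against these shares, so their counts are descriptions. Among 8 genes listed as KRAB repressors, some of them of retroelements, ZNF genes or imprints, 6 fell, 1 rose and 1 was not called. Beside ZNF91 and ZNF93, ZNF274, which brings SETDB1 to the ends of other ZNF genes, stood at 42.2, 41.1 and 47.8 CPM in NT and between 25.5 and 30.2 CPM in the knockdown libraries (log2 fold change -0.66 ± 0.09). ZNF382 (-0.76 ± 0.11), ZNF350 (-0.51 ± 0.15), a partner of BRCA1, and ZNF460 (-0.35 ± 0.08) were also lower. The lowest NT library of ZNF350 (19.7 CPM) lay among its sh#16 libraries (19.3 to 20.1 CPM). ZNF10 (KOX1), whose KRAB domain is used in CRISPR interference, was higher (0.36 ± 0.10). ZNF445, a regulator of imprinted genes, stood between 173 and 186 CPM in NT and between 160 and 190 CPM in knockdown libraries and was not called. With total count scaling ZNF274, ZNF350 and ZNF460 were not called, and of 23 alternatives 16 ended the call of ZNF350 and 11 that of ZNF10.

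Among 10 genes listed as sequence-specific activators and GC-box factors, 7 fell and 0 rose. The list is not uniform, since ZNF263 scored as a KRAB gene. Its name is a label, and whether each gene acts as an activator in these cells was not tested. ZNF24 stood at 292, 269 and 242 CPM in NT, at 97.1, 90.9 and 100 CPM in sh#16 and at 68.6, 65.6 and 65.9 CPM in sh#87 libraries (log2 fold change -1.72 ± 0.16, adjusted p = 5.34e-06 in edgeR). ZNF121, which binds MYC, stood at 455, 423 and 398 CPM in NT, at 179, 174 and 179 CPM in sh#16 and at 132, 130 and 127 CPM in sh#87 libraries (log2 fold change -1.47 ± 0.14). In both genes each group was apart from the other groups. ZNF148 (-1.21 ± 0.14), ZNF131 (-1.05 ± 0.11), ZNF639 (-0.99 ± 0.11), ZNF76 (-0.56 ± 0.13) and ZNF263 (-0.35 ± 0.08) fell as well, while ZNF143 (0.13 ± 0.11, adjusted p = 0.300 in edgeR), the paralog of ZNF76 and the only 1 of the 10 above 0, was not called, nor were ZNF281 (-0.28) and ZNF740 (-0.33). ZNF281 (-0.37) and ZNF740 (-0.38) were called lower with sh#87 on its own. With total count scaling ZNF76 and ZNF263 were not called. For ZNF263, 48.3% of 100-base stretches are shared with another gene model.

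Among 11 partners of chromatin complexes, 5 fell, 1 rose and 5 were not called. ZNF644, a partner of the G9a and GLP methyltransferases, stood at 332, 271 and 203 CPM in NT and between 73.1 and 86.3 CPM in the knockdown libraries (log2 fold change -1.78 ± 0.13). The paralogs ZNF608 (-1.32 ± 0.11) and ZNF609 (-0.93 ± 0.08), the latter a partner of cohesin loading and Integrator proteins, fell together with ZNF827 and ZNF280C (-0.48 ± 0.13). ZNF687 rose (0.81 ± 0.19), with NT libraries at 26.2, 41.0 and 55.2 CPM and knockdown libraries between 63.3 and 77.4 CPM. ZNF592, with which ZNF687 forms a complex around ZMYND8, was not called (0.44 ± 0.14, adjusted p = 0.0158 in edgeR). ZNF217, part of CoREST and CtBP complexes, had almost equal means (306 ± 33.6 CPM (SD, n = 3) in NT and 305 ± 34.0 CPM (SD, n = 6) in knockdown libraries) and was not called, nor were ZNF335, ZNF496 and ZNF518A. With sh#87 on its own ZNF335 (0.998) and ZNF592 (0.54) were called higher, and with sh#16 on its own ZNF518A (-0.43) was called lower. The call of ZNF280C was lost in 12 of 23 alternatives and that of ZNF687 in 3.

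Among 9 genes tied to blood cells and leukemia, 5 fell, 1 rose and 3 were not called. ZNF521, a cofactor of early hematopoietic progenitors, stood at 159, 160 and 145 CPM in NT, at 47.3, 45.5 and 45.9 CPM in sh#16 and at 48.8, 54.2 and 58.2 CPM in sh#87 libraries (log2 fold change -1.63 ± 0.09, adjusted p = 2.94e-07 in edgeR). The knockdown libraries of both hairpins were far below NT. ZNF268 (-1.46 ± 0.09), ZNF589 (-0.51 ± 0.10), ZNF362 and ZNF710 fell too. ZNF410, the activator of CHD4, was higher (0.46 ± 0.10), but 80.5% of its 100-base stretches are shared with another gene model. ZNF589 was not called with total count scaling, nor ZNF410 with NT replicate 3 as the only NT library. ZNF384 (-0.36 ± 0.13), ZNF385A (0.17 ± 0.17) and ZNF395 (-0.18 ± 0.14) were not called, although ZNF384 was called lower with sh#16 on its own (-0.53).

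Among 10 genes with functions in RNA, ribosomes, the spindle or ubiquitin and SUMO transfer, 5 fell, 2 rose and 3 were not called. ZNF330, a nucleolar protein, fell most (-1.46 ± 0.17), from between 37.6 and 63.9 CPM in NT to between 14.03 and 21.7 CPM in knockdown libraries. ZNF638, an RNA-binding protein that also silences unintegrated retroviral DNA, stood at 380, 320 and 267 CPM in NT and between 191 and 210 CPM in knockdown libraries (-0.68 ± 0.10). ZNF207 (BuGZ), which carries BUB3 to kinetochores, fell little (-0.39 ± 0.08), as did ZNF706 (-0.49 ± 0.11) and ZNF346 (-0.37 ± 0.10), which binds double-stranded RNA; these 3 were not called when total counts set the scale. The call of ZNF346 was lost in 11 of 23 alternatives. ZNF106, another RNA-binding protein, rose with ZNF598, from 206, 186 and 168 CPM in NT to between 284 and 295 CPM in knockdown libraries (0.64 ± 0.08). ZNF277, ZNF326 and the SUMO ligase ZNF451 were not called, although ZNF277 was called higher with sh#87 on its own (0.48). Per kilobase of canonical transcript the mean level over 9 libraries was 52.7 CPM for ZNF217, 37.3 for ZNF638, 34.9 for ZNF121, 25.6 for ZNF207 and 24.6 for ZNF106, the 5 genes with the most CPM.

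KRAB proteins work through corepressors, so genes of that pathway were also read, under 22 symbols. FAM208A and TASOR are symbols of the same gene, and all 21 genes were in the table. Of these, 9 fell, 2 rose and 10 were not called, while 29.7% of all genes tested were lower and 30.1% higher. TRIM28 itself stood at 129, 191 and 310 CPM in NT, at 380, 392 and 391 CPM in sh#16 and at 384, 390 and 358 CPM in sh#87 libraries (log2 fold change 0.86 ± 0.22, adjusted p = 0.0045 in edgeR). With each hairpin on its own TRIM28 was not called (adjusted p = 0.0109 for sh#16 and 0.0122 for sh#87 in edgeR). The NT libraries differed more among themselves than NT replicate 3 did from the knockdown libraries. CBX1 (HP1 beta) rose (0.95 ± 0.13), from between 36.1 and 55.3 CPM to between 86.9 and 97.7 CPM, while CBX5 (HP1 alpha) was lower (-0.35 ± 0.10) and CBX3 (HP1 gamma) was not called.

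SETDB1, the H3K9 methyltransferase that TRIM28 recruits, stood at 78.4, 75.7 and 71.6 CPM in NT, at 41.1, 42.8 and 37.5 CPM in sh#16 and at 38.9, 40.4 and 43.2 CPM in sh#87 libraries (log2 fold change -0.89 ± 0.08, adjusted p = 4.36e-06 in edgeR). Its partner ATF7IP fell more, from 644, 512 and 374 CPM in NT to between 136 and 171 CPM in knockdown libraries (-1.74 ± 0.15). The HUSH subunits TASOR (-1.27 ± 0.12) and MPHOSPH8 (-0.64 ± 0.18) were lower and PPHLN1 was not called. The NT libraries of MPHOSPH8 (175, 126 and 80.3 CPM) overlapped the knockdown libraries. With each hairpin on its own MPHOSPH8 was not called (adjusted p = 0.0380 for sh#16 and 0.0196 for sh#87 in edgeR). Of the NuRD subunits, the helicase CHD3 fell from between 441 and 523 CPM to between 98.7 and 138 CPM (-2.04 ± 0.13) and HDAC2 fell (-1.53 ± 0.20), whereas CHD4 (0.06 ± 0.10) and HDAC1 (0.06 ± 0.14) were not called. SMARCAD1 (-1.20 ± 0.11) and MORC3 (-0.77 ± 0.11) fell, and DNMT1, UHRF1, SUV39H1, SUV39H2, EHMT1 and EHMT2 were not called. With sh#16 on its own HDAC1 (0.26) and SUV39H2 (0.45) were called higher and EHMT1 (-0.34) lower.

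**Figure D4:**
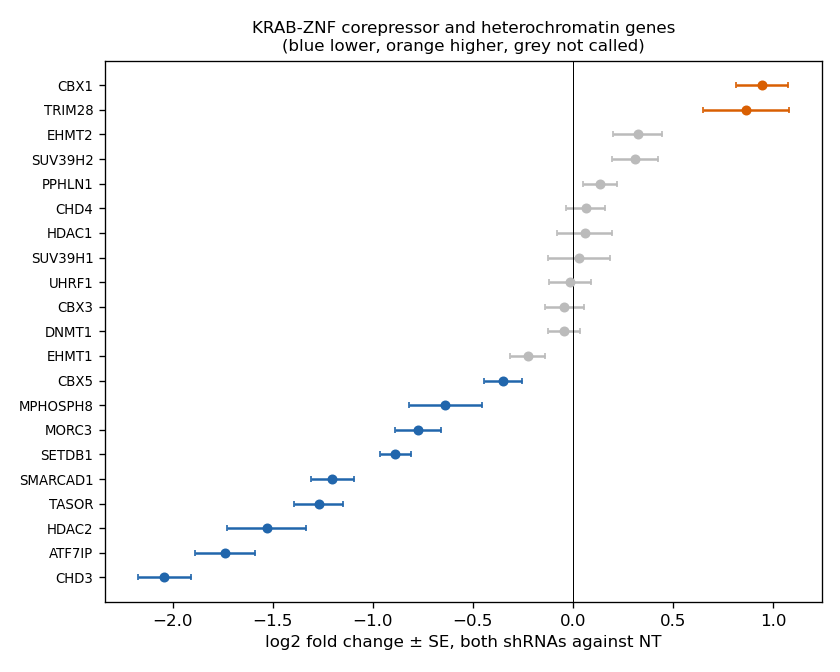
Log2 fold change (both shRNAs against NT, points) with its standard error (bars) of 21 corepressor and heterochromatin genes that work with KRAB-ZNF proteins. Blue points are lower, orange points higher and grey points not called at an adjusted p of at most 0.01; CHD3 (-2.04) is lowest and CBX1 (0.95) highest.

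The last comparison asked where the hairpins differ from each other. Of the 238 ZNF genes, 15 (6.30%) were higher and 25 (10.5%) lower in sh#87 than in sh#16 libraries, against 8.29% and 9.42% of all genes, and the median log2 difference was -0.08, against -0.02 over all genes. At a log2 difference of at least 1 the counts were 1 higher (0.42%) and 0 lower, against 2.72% and 1.55%; the lowest value was -0.80, so this 0 too holds at any p. The shares of ZNF genes called were near those of all genes. With the limit on the adjusted p set to 0.05 the counts were 34 and 58. The counts moved when single libraries were left out, and the shares of all genes moved with them. They were 29 higher and 46 lower without NT replicate 1 (13.7% and 14.4% of all genes), 11 and 16 without NT replicate 2 (6.35% and 6.98%), and 35 and 53 without NT replicate 3 (15.5% and 16.8%). They were 4 and 6, 3 and 7, and 3 and 7 without sh#16 replicates 1, 2 and 3, and 10 and 12, 5 and 5, and 3 and 8 without sh#87 replicates 1, 2 and 3, where between 2.88% and 4.79% of all genes were higher and between 3.72% and 5.14% lower. With only the 2 knockdown groups in the fit they were 52 and 71, beside 22.3% and 23.4% of all genes.

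ZNF331, an imprinted gene, differed most. It stood at 13.2, 14.8 and 14.6 CPM in NT, at 17.1, 16.3 and 16.7 CPM in sh#16 and at 33.0, 36.3 and 35.7 CPM in sh#87 libraries (log2 difference 1.07 ± 0.08 (SE, n = 3 against 3), adjusted p = 6.72e-05 in edgeR). Only the sh#87 libraries stood well above the others. ZNF862 (0.68 ± 0.15), ZNF839 (0.62 ± 0.09), ZNF407 (0.60 ± 0.09) and the pseudogene ZNF731P (0.54 ± 0.07) were also higher in sh#87 libraries. For ZNF839 the sh#16 libraries (16.0 to 16.3 CPM) were below and the sh#87 libraries (24.4 to 25.4 CPM) above the NT libraries (18.0 to 22.2 CPM).

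The 5 genes most reduced in sh#87 against sh#16 were ZNF253 (-0.80 ± 0.16), ZNF614 (-0.79 ± 0.11), ZNF92 (-0.76 ± 0.14), ZNF816 (-0.68 ± 0.13) and ZNF813 (-0.67 ± 0.12), all with KRAB. Each was lower than NT with sh#16 and lower again with sh#87. ZNF614 stood at 58.6, 50.6 and 44.2 CPM in NT, at 25.6, 23.0 and 24.0 CPM in sh#16 and at 13.9, 13.5 and 14.6 CPM in sh#87 libraries. MECOM itself was lower in sh#87 (105.8 to 109.2 CPM) than in sh#16 libraries (142.8 to 145.4 CPM).

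**Figure D5:**
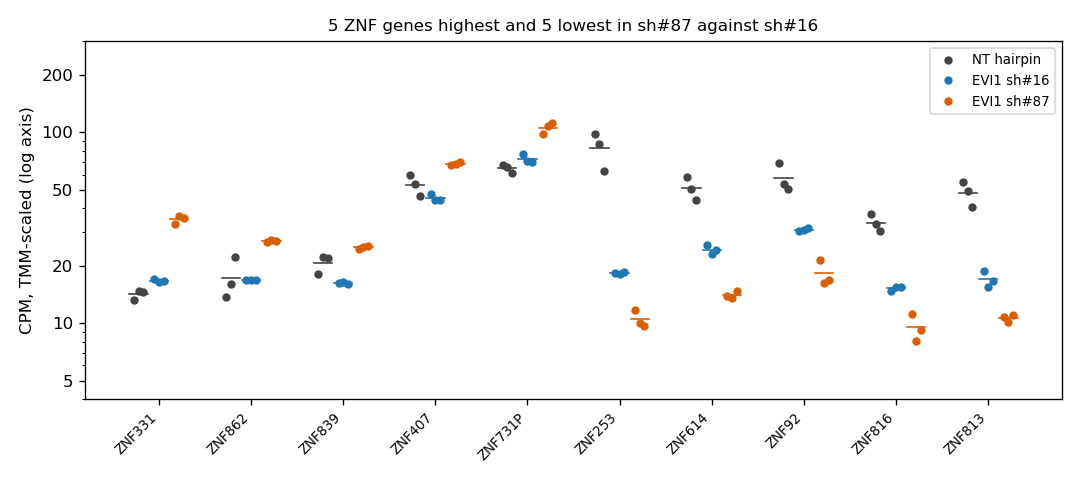
Level of the 5 ZNF genes highest and the 5 lowest in sh#87 against sh#16, in TMM-scaled CPM on a log axis. Points are libraries and bars means of 3 (grey NT, blue sh#16, orange sh#87); for ZNF331 only the orange points stand well above the rest (33.0 to 36.3 CPM), and for the 5 genes on the right the orange points lie below the blue and the blue below the grey.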

How the data were processed

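RNA of HNT34 cells (TruSeq stranded mRNA libraries) was measured in 3 NT, 3 sh#16 and 3 sh#87 libraries. The values are estimated counts per gene, deposited by the authors in a single table. Its header names salmon outputs, whereas the methods and the processing notes name STAR, with GRCh38 as the build. All values were whole, so none was rounded, and 0 columns of per-sample values were left unused.

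The members and lists were chosen with earlier results of these data known. Models were fitted on all genes in R 4.3.3 with edgeR 4.0.16 (filterByExpr, TMM, quasi-likelihood test, Benjamini-Hochberg adjustment, calls at an adjusted p of at most 0.01). Both hairpins against NT used a fit of 2 groups, and single hairpins a fit of 3 groups. SE is the log2 fold change divided by the root of its F statistic. DESeq2 1.42.0 and limma-voom (limma 3.58.1) were alternatives, beside other scalings, filters and library sets. The test was run on simulated data first.

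Named genes were the 10 highest and 10 lowest log2 fold changes among members called with each hairpin and with knockdown and NT libraries apart, the 5 highest and 5 lowest differences between hairpins, the 5 highest levels, members of the role lists, and the genes beside the count limit. Genes outside this rule are named as such. KRAB domains were scored with a profile of 34 residues built from 80 seed sequences (score above 0 in any coding transcript). Fingers were counted by the C2H2 pattern in a single transcript of each gene, the canonical one where marked. Both used GENCODE v44 proteins lifted to GRCh37. Positions and promoters came from RefSeq (GRCh38.p14), where 238 and 200 members matched. Depth was between 17096170 and 43502389 counts, and intervals between libraries, not reads, set the precision. A marker gene of another cell type is not reported here.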

Additional observations from a re-analysis of the deposited data

Results flagged for a closer look

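Of the ZNF genes named above by ranking, level or role list, 17 differed between the hairpins in the test of sh#87 against sh#16 itself. The limit was an adjusted p of at most 0.01 in edgeR. This is also the test of whether their effects against NT differ. ZNF14, named outside the ranking, passed the same limit with a log2 difference of -0.58 and is not among the 17. ZNF331 had a log2 difference of 1.07, ZNF862 of 0.68, ZNF839 of 0.62, ZNF407 of 0.60, ZNF731P of 0.54, ZNF789 of 0.47, ZNF706 of 0.33 and ZNF778 of 0.30. ZNF253 had a log2 difference of -0.80, ZNF614 of -0.79, ZNF92 of -0.76, ZNF816 of -0.68, ZNF813 of -0.67, ZNF33B of -0.65, ZNF362 of -0.64, ZNF24 of -0.53 and ZNF121 of -0.46. ZNF331 was the gene in which the effects differed most, with log2 fold changes against NT of 0.23 for sh#16 and 1.30 for sh#87.

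In the 6 knockdown libraries, 1 library of ZNF382 lay apart from the other 5, with a gap that took 0.702 of the whole range. The total counts of the knockdown libraries also held 1 library apart, sh#16 replicate 2 with 43502389 counts, whose gap took 0.773 of the range. Chance alone marks about 1 in 20 sets of values in this way, and 74 sets were read.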

How the results depend on the processing

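Of 450 recomputed counts of ZNF genes called, 384 stayed within 1.5 times the value reported. Beside the changes of the count limit and the left-out libraries given below (of which NT replicate 2 left 15 higher genes for both hairpins, against 31), counts for both hairpins against NT that did not were 51 higher (10 by at least 1 on the log2 scale) with total count scaling, and 8 (1) with NT replicate 3 as the only NT library. For sh#16 against NT the higher genes numbered 41 with upper-quartile scaling, 39 with an adjusted p limit of 0.05, 44 after the length and GC correction (2 by at least 1) and 50 with total counts, and the genes lower by at least 1 numbered 25 with total counts and 29 with NT replicate 3 alone (2 higher). For sh#87 against NT the higher genes numbered 66 with total counts (18 by at least 1), and 11 passed a log2 change of 1 with upper-quartile scaling. For sh#87 against sh#16 the counts higher and lower were 25 and 36 with DESeq2, 44 and 70 with limma-voom weighted per group, 34 and 58 with an adjusted p limit of 0.05, 36 and 35 after the length and GC correction, 52 and 71 with only these groups in the fit, and 51 and 73 with NT replicate 3 alone. The cause was not tested.

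A limit of 250 mean counts gave 10 genes higher by at least 1 and 1 by at least 2 (both hairpins), 38 and 7 (sh#16, any size and at least 1), 12 (sh#87, at least 1) and 2 (between hairpins, at least 1). With a limit of 1000, fewer genes were counted. Higher and lower were 16 and 63, then 3 and 28 by at least 1 and 5 lower by at least 2, for both hairpins, 13 and 69, with 28 lower by at least 1, for sh#16, 22 and 66, then 4 and 36, for sh#87, and 8 and 11, with 0 higher by at least 1, between hairpins.

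Leaving out 1 library gave between 15 and 27 higher and between 110 and 129 lower for both hairpins, with 4 to 7 and 48 to 64 by at least 1, and 0 and 9 to 14 by at least 2. For sh#16 the ranges were 18 to 33 and 113 to 149, with 3 to 6 and 39 to 55 by at least 1. For sh#87 they were 30 to 46 and 119 to 144, with 6 to 11 and 61 to 77 by at least 1. Between hairpins they were 3 to 35 and 5 to 53, with 1 and 0 by at least 1.

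The replicate numbers did not pair the libraries (correlation of deviations between -0.14 and 0.08). With a replicate block the counts were 24 higher and 115 lower for both hairpins and 5 and 16 between hairpins.

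Among 72 named genes, ZNF213 turned to -0.34 after the length and GC correction. The other changes of sign were in genes not called. ZNF217 (0.10 upper-quartile, 0.061 weighted voom, 0.00023 unfiltered, 0.0070 with a mean of at least 10 counts, 0.24 length and GC, 0.30 total counts, 0.19 with NT replicate 3 alone, -0.11 to 0.046 with a library left out, 5 of 9 above 0) was one. The rest were ZNF326 (0.18 length and GC, 0.17 total counts, 0.16 NT replicate 3 alone), ZNF496 (-0.067 and -0.025, length and GC and NT replicate 3 alone), ZNF518A (0.11 and 0.069, length and GC and total counts), ZNF385A (-0.55 length and GC, -0.13 NT replicate 3 alone, -0.025 without NT replicate 1, at most 0.34 without another library), ZNF395 (0.10 total counts), ZNF281 (0.031 length and GC, 0.030 total counts) and ZNF445 (0.065 upper-quartile, 0.25 total counts).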
